A study of Homo sapiens with 30 samples.

Results

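The genes described here encode the cell's protein-folding machinery: heat shock proteins of the HSP90, HSP70, HSP110, HSP60, HSP10, and small HSP families, J proteins (DNAJ), the subunits of the cytosolic chaperonin CCT, and the transcription factor HSF1. They were chosen by gene symbol, and 84 of the 26228 genes listed met the rule. The rule itself uses no measured value, but the members were chosen with earlier results of these data known. Of these, 68 had a mean of at least 1 FPKM (fragments per kilobase of transcript, scaled to the mapped total of the library) over all libraries and were tested, together with 11575 genes in all. The other 16 were not tested. DNAJB3, DNAJB8, and HSPA12B were listed at 0 in every library, and the remaining 13 reached at most 1.41 FPKM in any library (DNAJC6). Among these 13 was HSPA6, an HSP70 that is induced by heat and otherwise nearly silent, with a highest library of 1.33 FPKM. Among the 68, 61 had a mean of at least 1 FPKM in each of the 10 groups. The other 7, HSPA2, HSPB3, HSPBAP1, DNAJB5, DNAJC16, DNAJC27, and HSPA1A, had a mean under 1 FPKM in 2 to 6 of the groups and passed the filter through the rest, so their values across those groups are a description. HSPB11, a component of intraflagellar transport, and HSPBAP1, which binds the small HSP HSPB1, met the rule by name and are not themselves chaperones.

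SH-EP is an established human neuroblastoma (NB) cell line without MYCN amplification. RNA-Seq was performed on parental SH-EP cells and on 4 derived lines that express WT, T58A, S62A, or T58A S62A MYCN from an exogenous promoter after retroviral transfer. T58A and S62A replace residues whose phosphorylation controls MYCN stability, and whether each line is 1 clone or a pool is not given in the sources used here. Each line was treated for 6 hours with DMSO or with 1 μM CYC065, an inhibitor of CDK2 and of CDK9, the kinase that releases paused RNA polymerase II into elongation. There were 3 libraries per line and treatment, 30 in all, and the sources do not say that the 3 were separate cultures, so p-values measure only the spread between these libraries. MYCN was listed at 0 in all 6 SH-EP libraries and lay between 5.08 and 15.7 FPKM in the 12 DMSO libraries of the MYCN lines. Read totals are unknown. Judged from the steps between low values, DMSO libraries had 0.448 to 1 and CYC065 libraries 0.279 to 0.543 of the depth of the deepest library. All 6 SH-EP libraries carry index sequences that were also used for MYCN-line libraries, so the pool in which a library was run and its parental or MYCN status cannot be told apart. The mesenchymal NB markers VIM, FN1, PRRX1, SNAI2, and YAP1 were present in every library, of the adrenergic markers only HAND2 and GATA3 exceeded 1 FPKM, and markers of epithelial cells, leukocytes, and endothelium stayed at or below 0.327 FPKM. Of these 5 markers, 4 had a lower DMSO mean in every MYCN line than in SH-EP, FN1 the most (28.3 to 52.1 FPKM, against 303), whereas YAP1 was at 19.9 to 28.6 FPKM against 24.3. Their part in the results below was not tested.

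Chaperones bind unfolded or partly folded proteins and keep them from aggregating. HSP70 works in cycles of ATP hydrolysis in which J proteins deliver the client and start hydrolysis, and HSP110 proteins release the nucleotide afterward. HSP90 acts late, on kinases, steroid receptors, and other near-native clients. CCT encloses newly made actin, tubulin, and other proteins in a ring of 8 different subunits, and HSP60 (HSPD1) with its lid HSP10 (HSPE1) does the same in mitochondria. HSF1 drives the heat-inducible members. In the ER, a separate set led by HSPA5 (BiP) and HSP90B1 (GRP94) is under control of the unfolded protein response. MYC proteins bind the E-box, HSF1 the heat shock element, and the factors of the unfolded protein response the ER stress response element, which makes promoter sequence a useful way to view the genes side by side.

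The promoter stretches below are shown for members on which the results turn. They were taken from RefSeq (GRCh38.p14), end at the base before the start site, and run 5′ to 3′ on the gene's own strand. In all, 71 of the 84 members matched the table, with 92 windows that reach from 250 bases before to 50 bases after a start site. HSPE1 and HSPD1 are transcribed in opposite directions from start sites 105 bases apart, and the HSPE1 stretch is the whole sequence between these. Capitals in the first 3 sequences mark the E-box CACGTG, which reads the same on both strands.
HSPE1, chr2:197500275-197500378, plus strand: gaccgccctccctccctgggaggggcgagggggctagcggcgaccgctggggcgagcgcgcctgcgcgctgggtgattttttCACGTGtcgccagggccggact
HSPA9, chr5:138575402-138575521, minus strand: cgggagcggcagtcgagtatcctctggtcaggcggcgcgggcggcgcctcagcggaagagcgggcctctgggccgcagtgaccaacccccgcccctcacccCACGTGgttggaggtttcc
DNAJB9, chr7:108569754-108569873, plus strand: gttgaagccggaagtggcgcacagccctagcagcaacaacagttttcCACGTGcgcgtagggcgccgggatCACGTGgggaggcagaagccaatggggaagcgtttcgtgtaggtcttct
The E-box of HSPE1 began 22 bases before the start site and is the same site as the one found in the HSPD1 window. That of HSPA9 began 19 bases before its start site, and the DNAJB9 stretch held 2, beginning 73 and 49 bases before. Of all 35116 promoter windows, 7.26% held an E-box, against 9.78% of the members' windows, and it was found in 4 of 29 genes that were higher in the MYCN lines in the comparison below and in 5 of 31 tested genes that were not. The heat shock element was in 5 of those 29 and 1 of those 31, the ER stress response element in 0 and 2, and the CCAAT box in 9 and 18, and no test was run on these counts.
Capitals in the next 3 sequences mark the heat shock element, searched on both strands as GAA, TTC, and GAA with 2 bases of any kind between each. For genes with several windows the one with the match is shown.
HSPA8, chr11:123062137-123062386, minus strand: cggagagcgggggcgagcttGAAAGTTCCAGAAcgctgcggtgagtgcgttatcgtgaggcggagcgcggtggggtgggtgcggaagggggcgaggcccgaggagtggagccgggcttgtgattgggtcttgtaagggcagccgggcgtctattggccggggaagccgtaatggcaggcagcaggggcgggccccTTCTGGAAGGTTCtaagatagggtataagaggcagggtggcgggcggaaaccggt
HSP90AA1, chr14:102087045-102087164, minus strand: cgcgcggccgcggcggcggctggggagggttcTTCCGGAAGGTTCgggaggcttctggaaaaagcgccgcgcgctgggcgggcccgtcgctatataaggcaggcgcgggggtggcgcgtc
HSP90AB1, chr6:44247763-44247942, plus strand: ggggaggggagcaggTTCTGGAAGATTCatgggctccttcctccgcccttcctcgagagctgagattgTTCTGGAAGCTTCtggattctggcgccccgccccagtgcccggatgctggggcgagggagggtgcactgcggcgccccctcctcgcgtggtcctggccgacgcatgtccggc
This element was found in 0.49% of all windows and in 7.61% of the members' windows. The genes with a match were HSPA8, HSP90AB1, HSP90AA1, DNAJA1, HSPD1, HSPA6, and DNAJB6. Of 13 genes in a list of heat-inducible members, 6 had a match.
Capitals in the last pair mark the ER stress response element, searched on both strands as CCAAT and CCACG with 9 bases of any kind between. Its first 5 letters are a CCAAT box, found by itself in 34.6% of all windows.
HSPA5, chr9:125241344-125241463, minus strand: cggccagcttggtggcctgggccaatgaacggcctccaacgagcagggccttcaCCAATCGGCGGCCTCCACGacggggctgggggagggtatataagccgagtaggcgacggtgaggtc
HSP90B1, chr12:103930210-103930409, plus strand: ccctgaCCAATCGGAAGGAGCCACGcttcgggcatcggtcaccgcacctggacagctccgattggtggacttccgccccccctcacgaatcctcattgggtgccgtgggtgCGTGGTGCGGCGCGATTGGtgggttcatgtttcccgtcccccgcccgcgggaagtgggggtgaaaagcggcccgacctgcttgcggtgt
Of all windows, 0.0769% held this element, and among the members only those of HSPA5 and HSP90B1 did. The 9 windows of the CCT genes, which cover 7 genes and not CCT6A, held none of the 3 motifs in these forms. A match is a string of letters, not evidence that a factor was bound.

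The first comparison asks how the folding machinery differed between cells with and without exogenous MYCN, in DMSO and on FPKM as deposited, which are relative to all RNA in a library. Over the mean of the 4 MYCN lines, 33 of the 68 tested members were higher than in SH-EP and 13 were lower (limma, Benjamini-Hochberg adjusted p under 0.05 over all 11575 genes). Among all tested genes, 34.6% were higher and 26.3% lower, against 48.5% and 19.1% of the members. The members' median log2 difference was 0.23, and that of all tested genes was 0.06. In each of the 4 lines separately, 26 members were higher (38.2%, against 19.2% of all tested genes) and 5 were lower (7.35%, against 13.4%). Without regard to any test, all 12 MYCN-line libraries lay above all 3 SH-EP libraries for 27 members (39.7%, against 21.8% of all tested genes) and below them for 7 (10.3%, against 16.5%). HSPB3 is among these 27. It was listed at 0 in SH-EP and passed the filter only through MYCN lines, so its part in these counts is a description. Line by line, 33 members were higher and 10 lower in WT (31.6% and 22.6% of all tested genes), 28 and 17 in T58A (30.9% and 23.3%), 32 and 8 in S62A (31.0% and 23.4%), and 33 and 12 in T58A S62A (31.2% and 24.1%). Among the members, mitochondrial chaperones, CCT, HSP110, and cytosolic HSP90 were mostly higher, and several ER members, HSPB1, and HSPB6 were lower. The SH-EP libraries are shared by all of these comparisons.

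**Figure D1:**
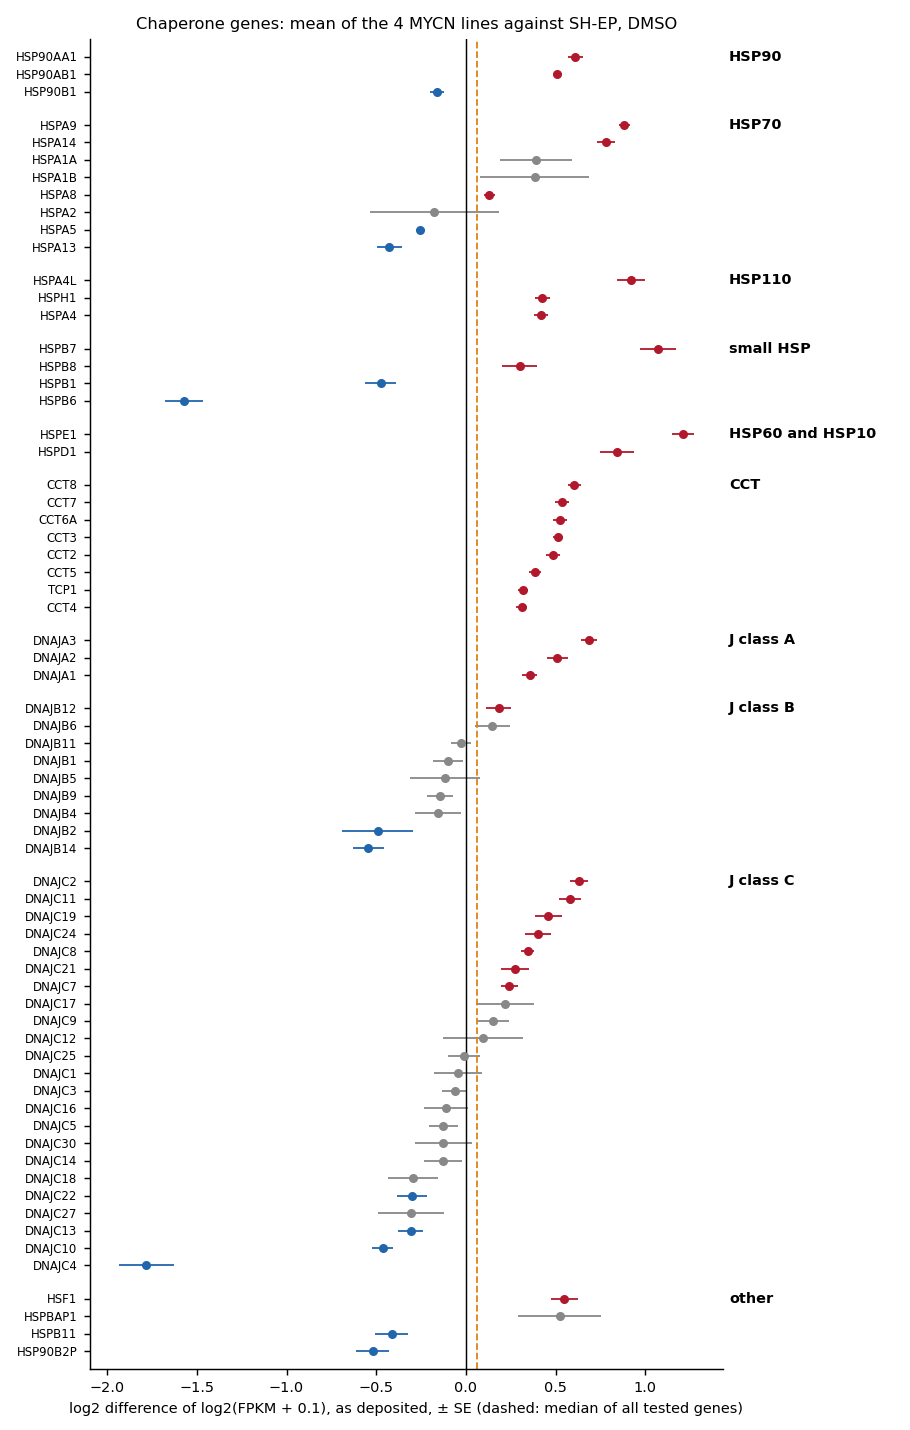
Log2 difference between the mean of the 4 MYCN lines and SH-EP in DMSO (x axis, log2(FPKM + 0.1) as deposited, bars are SE of the limma fit) for 67 tested members, grouped by family. Red points were higher and blue points lower at an adjusted p under 0.05, gray points did not pass, the dashed line is the median of all tested genes (0.06), and HSPB3 is left out because it was listed at 0 in SH-EP. HSP110, HSP60 and HSP10, CCT, and class A J proteins lie wholly to the right of that line.

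Mitochondrial chaperones had some of the largest differences. HSPE1, the HSP10 lid (chromosome 2, 198364864 to 198368173 of GRCh37, plus strand), was at 204, 199, and 210.0 FPKM in the 3 SH-EP libraries. It was at 445, 505, and 441 FPKM in WT, 517, 536, and 495 in T58A, 373, 509, and 423 in S62A, and 512, 511, and 433 in T58A S62A. The lowest MYCN-line library was thus well above the highest SH-EP library, and the mean difference was 1.21 in log2 (SE 0.06, adjusted p = 2.58e-14, limma), a 2.31-fold difference. Its partner HSPD1, the HSP60 barrel (chromosome 2, 198351308 to 198381461, minus strand), was at 359, 387, and 388 FPKM in SH-EP and between 579.7 and 812 FPKM in the 12 MYCN-line libraries, again without overlap (0.84 in log2, SE 0.09, adjusted p = 4.15e-08). The exons of the 2 genes overlap on opposite strands, and HSPE1 shares exons with the readthrough gene HSPE1-MOB4 on its own strand.
HSPA9 (mortalin), the HSP70 that pulls proteins into the mitochondrial matrix (chromosome 5, 137889445 to 137911364, minus strand), was at 107, 110.3, and 113 FPKM in SH-EP. In the MYCN lines its 12 libraries ran from 187 to 221 FPKM, so the groups did not overlap, and the difference was 0.88 in log2 (SE 0.03, adjusted p = 4.37e-17, limma). DNAJA3 (TID1), the class A J protein that serves HSPA9, differed by 0.69, DNAJC11, a J protein of the mitochondrial membranes, by 0.58, and DNAJC19, a J protein of the inner membrane import motor, by 0.46. Of the 7 tested genes in the list of mitochondrial chaperones, 6 were higher (34.6% of all tested genes) and 0 lower (26.3%). DNAJC30 was the exception at -0.13 (adjusted p = 0.515), and DNAJC15 was not tested, being above 0 in only 1 library.

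All 8 CCT subunits were higher in the MYCN lines, each of them in all 4 lines (19.2% of all tested genes). The log2 differences ran from 0.31 for CCT4 and 0.32 for TCP1 (CCT1) through 0.39 for CCT5, 0.49 for CCT2, 0.52 for CCT3, 0.53 for CCT6A, and 0.53 for CCT7 to 0.61 for CCT8. CCT8 was at 143, 131, and 137 FPKM in SH-EP and between 189 and 232 FPKM in the 12 MYCN-line libraries. The subunits, which assemble in equal number, had mean levels in SH-EP from 136 FPKM for CCT4 to 289 FPKM for CCT3.
Prefoldin, which hands clients to CCT, and the co-chaperones were examined as lists of genes that did not meet the rule. Of 39 such genes, 37 were tested, and 27 were higher and 5 lower over the mean of the MYCN lines, against 34.6% higher and 26.3% lower of all tested genes. All 10 HSP90 co-chaperones and 5 of 6 prefoldin subunits were among the higher genes. Of 12 HSP70 co-chaperones 6 were higher and 3 lower, and of the 9 other genes tested 6 were higher and 2 lower. The extremes were FKBP4, a co-chaperone of HSP90 with steroid receptors (1.18), and TRAP1, the mitochondrial HSP90 (0.92), at the upper end, and SERPINH1, the collagen chaperone HSP47 (-1.51), and HSF4 (-0.99) at the lower end.

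The cytosolic HSP90 genes were among the most abundant members. HSP90AA1, the stress-inducible form (chromosome 14, 102547079 to 102606036, minus strand), was at 989, 1091, and 1115 FPKM in SH-EP. It was at 1930.1, 1900.4, and 1928 in WT, 1386, 1431, and 1335 in T58A, 1874, 1752, and 1937 in S62A, and 1333, 1566, and 1360.0 in T58A S62A, so WT and S62A stood above the other MYCN lines and all 4 above SH-EP. The mean difference was 0.61 (SE 0.04, adjusted p = 8.46e-12, limma). HSP90AB1, the constitutive form (chromosome 6, 44213903 to 44221625, plus strand), was at 835, 864, and 845 FPKM in SH-EP and between 1136 and 1279.8 FPKM in the MYCN lines (0.51, SE 0.03, adjusted p = 2.01e-14). Its 4 line differences lay between 0.45 and 0.54, and it did not pass the test for a difference among the MYCN lines (adjusted p = 0.106).
The constitutive HSP70, HSPA8 (chromosome 11, 122928197 to 122933938, minus strand), was at 1353, 1384, and 1369 FPKM in SH-EP and 1708, 1731, and 1724 in WT. T58A, at 1429, 1346, and 1348, overlapped SH-EP. The mean difference was 0.13 (adjusted p = 0.000627), with WT (0.33) and T58A S62A (0.13) past the threshold and T58A (0.01) and S62A (0.05) not. HSPA14, an HSP70 that works at the ribosome, was higher by 0.78, and DNAJC2, the J protein of the same ribosome-bound complex, by 0.63. All 3 HSP110 genes that met the rule were higher in every MYCN line (19.2% of all tested genes): HSPA4L by 0.92, HSPH1 by 0.43, and HSPA4 by 0.42 on average. HYOU1, which did not meet it by name and was counted with the HSP70 co-chaperones, was lower (-0.37).
The stress-inducible HSP70 genes HSPA1A and HSPA1B lie side by side on chromosome 6 and are nearly identical, so the way reads were divided between these is uncertain. HSPA1B was at 17.6, 33.0, and 22.6 FPKM in SH-EP and HSPA1A at 1.66, 1.43, and 1.28 FPKM. Neither mean difference passed the test (0.38, adjusted p = 0.289, and 0.39, adjusted p = 0.101), and T58A S62A was the one line in which each did (1.02 and 0.99). For HSPA1B the mean difference ranged from 0.17 to 0.62 over fits without 1 library, both ends without a SH-EP library.
HSF1, the regulator itself, was higher by 0.55 (SE 0.08, adjusted p = 1.06e-06), with SH-EP libraries at 21.6, 23.1, and 20.4 FPKM and MYCN-line libraries from 27.0 to 36.0 FPKM. Of 12 tested heat-inducible members, 8 were higher (34.6% of all tested genes) and 1 lower (26.3%). The lower one was HSPB1 (HSP27, -0.48, adjusted p = 3.44e-05), and those that did not pass were HSPA1A, HSPA1B, and DNAJB1, the chief J partner of HSP70 under stress (-0.10, adjusted p = 0.326).

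The 3 tested class A members, which carry the full domain set of the bacterial DnaJ, were all higher: DNAJA3 as above, DNAJA2 by 0.51, and DNAJA1 by 0.36. Of 9 tested class B members 1 was higher and 2 were lower, and of 23 class C members 7 were higher and 4 lower, against 34.6% higher and 26.3% lower of all tested genes. No test compared the classes with each other.
The largest decrease was that of DNAJC4 (chromosome 11, 63997750 to 64001758, plus strand). It was at 19.7, 19.8, and 21.1 FPKM in SH-EP and between 3.78 and 7.20 FPKM in the 12 MYCN-line libraries, with no overlap (-1.78, SE 0.15, adjusted p = 4.83e-10, a 3.44-fold lower level). Its exons overlap those of NUDT22 on the same strand, so reads may be shared. DNAJB14, a J protein of the ER membrane that faces the cytosol, was lower on average (-0.54) and in all 4 lines. DNAJB2, which guides clients to the proteasome, was also lower (-0.49, adjusted p = 0.0339), a call that was lost in 6 of 15 fits with 1 library left out.

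None of the 9 ER members was higher over the mean of the MYCN lines, and 4 were lower (limma), against 34.6% higher and 26.3% lower of all tested genes. All 9 estimates were below 0. HSPA5 (BiP; chromosome 9, 127997132 to 128003661, minus strand) was at 274, 278, and 271 FPKM in SH-EP, 238, 243, and 246 in WT, 232, 224, and 216 in T58A, 264, 252, and 275 in S62A, and 194, 199, and 192 in T58A S62A. S62A overlapped SH-EP, T58A S62A was lowest, and the mean difference was -0.25 (SE 0.03, adjusted p = 8.64e-09, limma). DNAJC10 (ERdj5), which reduces disulfides in misfolded proteins, was lower (-0.46), as were HSPA13 (-0.43) and HSP90B1 (-0.16). HSP90B1 did not move in 1 direction: it was lower in T58A (-0.39) and T58A S62A (-0.39) and higher in S62A (0.16), while WT gave -0.02 and did not pass. DNAJB11 (ERdj3) at -0.03, DNAJC3 (p58IPK) at -0.06, and DNAJB9 (ERdj4) at -0.15 did not pass. The median of the 9 ER members was -0.15, against 0.69 for the mitochondrial list, 0.50 for CCT, and 0.06 for all tested genes. HSP90B2P, a pseudogene of HSP90B1 with which it may share reads, was lower (-0.52).

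**Figure D2:**
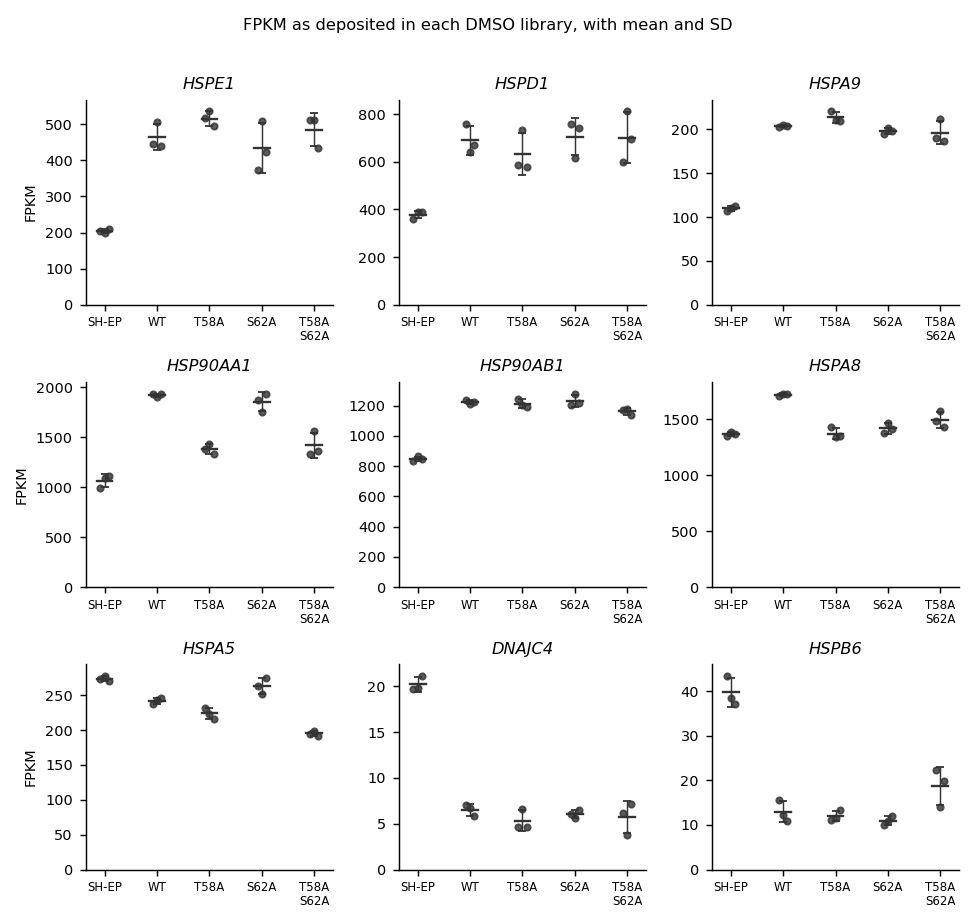
FPKM as deposited (y axis, from 0) of 9 members in each of the 3 DMSO libraries of SH-EP and the 4 MYCN lines, with the mean and SD of each line. HSPE1, HSPD1, HSPA9, and both cytosolic HSP90 genes are above SH-EP in every MYCN-line library, whereas DNAJC4 and HSPB6 are below it in every one.

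The small HSPs divided. HSPB6 (HSP20), a muscle-rich small HSP (chromosome 19, 36245467 to 36248980, minus strand), was at 43.4, 38.5, and 37.2 FPKM in SH-EP and between 10.1 and 22.2 FPKM in the MYCN lines (-1.57, SE 0.11, adjusted p = 5.56e-12), with no overlap. HSPB1 was lower in each line, by between 0.28 and 0.72 in log2, from 709, 673, and 641 FPKM in SH-EP. Its T58A S62A libraries, at 585, 439, and 668 FPKM, overlapped those of SH-EP.
HSPB7, a small HSP of heart and muscle (chromosome 1, 16340523 to 16346089, minus strand), varied among the MYCN lines more than any other tested member. It was at 2.22, 2.06, and 2.35 FPKM in SH-EP, 3.28, 2.35, and 2.34 in WT, 5.95, 5.80, and 6.98 in T58A, 1.67, 1.88, and 1.43 in S62A, and 19.0, 16.8, and 19.0 in T58A S62A. The 2 lines that carry T58A were thus higher than SH-EP (1.45 and 2.99), S62A was lower (-0.40), and WT did not pass (0.24), so the mean difference of 1.07 describes no single line.
HSPB3, a small HSP of muscle with 1 exon (chromosome 5, 53751529 to 53752207, plus strand), was listed at 0 in all 6 SH-EP libraries, so no fold is given. It was at 0.234, 0.988, and 0.530 FPKM in WT, 1.93, 2.25, and 4.14 in T58A, 1.41, 1.65, and 0.555 in S62A, and 3.76, 7.12, and 3.94 in T58A S62A. HSPB8, which works with BAG3 in selective autophagy, was higher in S62A (0.39) and T58A S62A (0.83) but gave -0.06 in WT and 0.04 in T58A.

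Among the 4 MYCN lines in DMSO, 42 of the 68 members differed (moderated F test of limma), 61.8% against 49.1% of all tested genes. After HSPB7 (adjusted p = 1.87e-15), the smallest p-values were those of CCT3, HSPA5, HSP90B1, CCT2, HSP90AA1, HSP90B2P, and CCT4. Their ranges between the highest and lowest line ran from 0.33 in log2 for CCT4 to 0.93 for HSP90B2P, against 3.39 for HSPB7. The chaperonin subunits did not share 1 order of lines. CCT3 was at 489, 497, and 468 FPKM in T58A and 488, 461, and 459 in WT but 337, 343, and 354 in S62A, and CCT2 was at 229, 219, and 208 in T58A, 289.8, 301, and 306 in WT, and 301, 272, and 302 in S62A. CCT3 was therefore highest in WT and T58A, whereas CCT2 and HSP90AA1 were highest in WT and S62A. HSPA9 and HSPD1 spanned 0.12 and 0.16 between lines, and HSP90AB1, DNAJA2, and DNAJA3 at most 0.09.

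**Figure D3:**
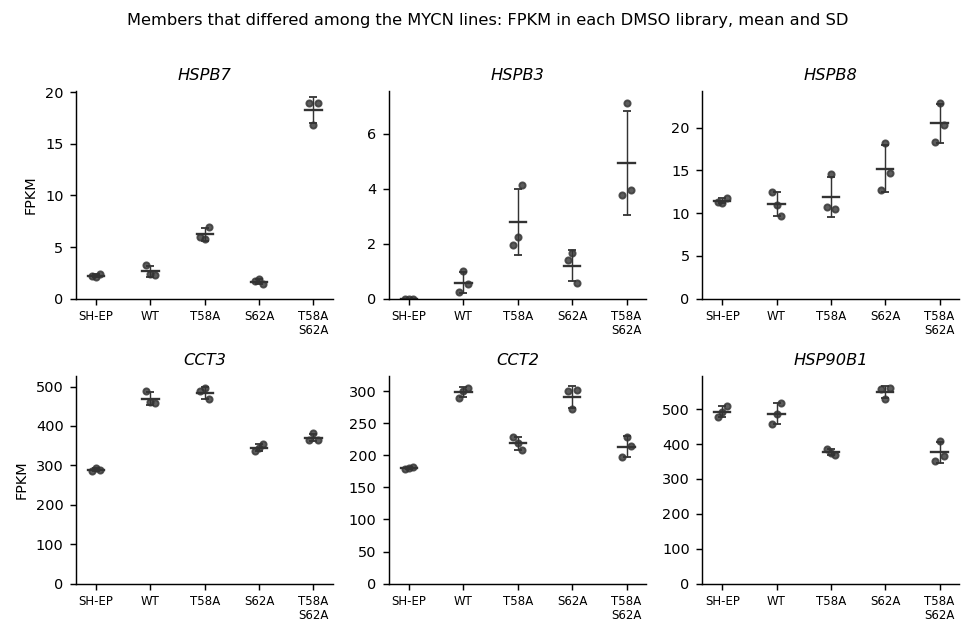
FPKM as deposited (y axis, from 0) of 6 members in each DMSO library of SH-EP and the 4 MYCN lines, with mean and SD. HSPB7 and HSPB3 are highest in T58A S62A, HSPB8 is highest in the same line, CCT3 is highest in WT and T58A, CCT2 in WT and S62A, and HSP90B1 in S62A.

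These line differences hold relative to all RNA in a library. Each library was then scaled to ERCC spike-ins, which were added by cell number so that values follow RNA per cell. On this scale the median of all tested genes was -1.18 in log2 in the MYCN lines against SH-EP. Of the members, 1 was higher (HSPB3, listed at 0 in SH-EP) and 65 were lower (1.09% and 91.4% of all tested genes). The members' median was then -1.03. The smallest mean differences were those of HSPE1, at -0.05, and HSPB7, at -0.15, and DNAJC4, at -3.04, was farthest from SH-EP among the lower members. Both small values average lines that lay above and below SH-EP. With DMSO, HSPB7 had a mean of 7.12 scaled FPKM in SH-EP. The double mutant (32.8) and T58A (10.6) exceeded this, whereas WT (3.68) and S62A (1.38) fell short of it. For HSPE1 the SH-EP mean was 657, with the double mutant (880) and T58A (865) above it and WT (622) and S62A (362) below. In bulk RNA, less RNA per cell and fewer cells than were counted cannot be told apart. The spread of the spike-in factors enters every value on this scale.

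The second comparison asks what 6 hours of CYC065 did to the folding machinery, on spike-in scaled FPKM, on which the level per cell is kept. Over the mean of the 5 lines, 67 of the 68 members fell and 1 rose, against 94.4% and 1.57% of all tested genes, so a fall in itself does not set these genes apart. In each of the 5 lines, 51 members fell (75.0%, against 69.8% of all tested genes) and 1 rose (1.47%, against 0.484%). The members' median change was -1.02 in log2 and that of all genes -1.20. By line, members that fell numbered 58 in SH-EP (76.3% of all tested genes), 67 for WT (93.7%), 60 for T58A (84.5%), 66 for S62A (90.2%), and 54 for the double mutant (76.4%), and 1 rose in each (0.890%, 0.769%, 1.24%, 0.959%, and 1.84%). The member that rose was HSPA2 in all of these counts. It passed the filter only through CYC065 libraries, so its part in the counts is a description. How far each member fell differed widely, from -0.33 to -3.53, and 40 of the 67 that fell did so by less than the median gene. All 61 members with a mean of at least 1 FPKM in each group were among the 67.

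**Figure D4:**
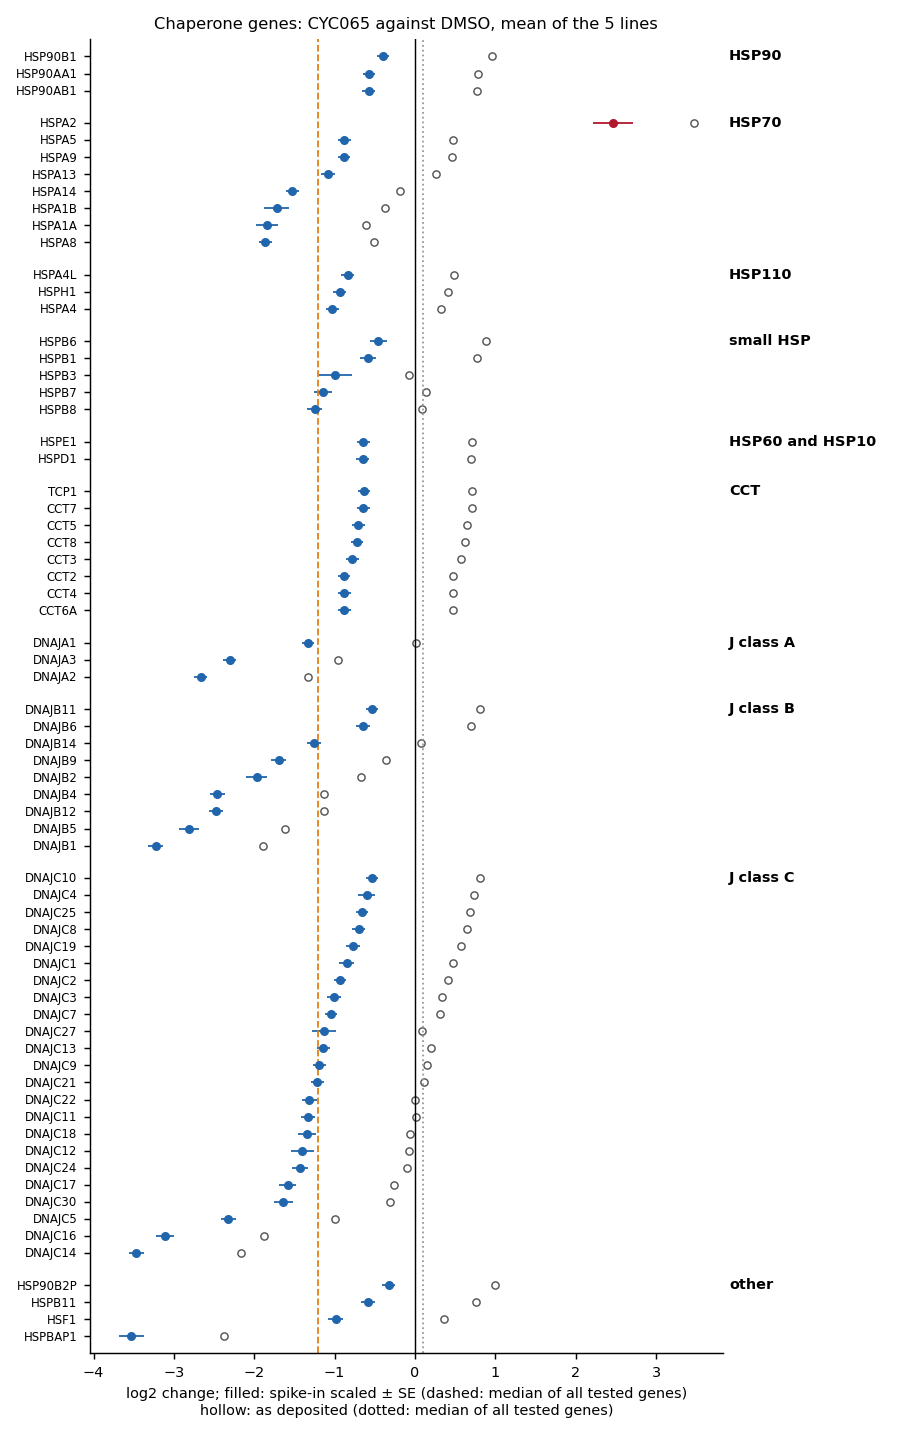
Log2 change with CYC065 over the mean of the 5 lines (x axis) for the 68 tested members by family. Filled points are spike-in scaled with SE (blue fell, red rose) and hollow points are the same genes as deposited, with dashed and dotted lines at the medians of all tested genes (-1.20 and 0.10). Filled points of HSP90, HSP110, HSP60 and HSP10, and CCT genes lie to the right of the dashed line, and those of class A and 7 of 9 class B J proteins lie to its left.

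HSP90, HSP60, HSP10, and CCT genes were among the members that fell least. HSP90B1 changed by -0.40 (SE 0.08, adjusted p = 1.76e-05, limma), HSP90AA1 by -0.57, and HSP90AB1 by -0.58. In scaled FPKM, HSP90AA1 was at 3214, 3357, and 3698 in SH-EP with DMSO and 2694, 2774, and 2193 with CYC065. In WT it went from 3181, 2138, and 2464 to 1404, 1135, and 1283. In T58A S62A the change of -0.35 did not pass the test. HSPE1 and HSPD1 fell by 0.64 and 0.65, the 8 CCT genes by between 0.64 (TCP1) and 0.88 (CCT6A), and the HSP110 members by between 0.84 (HSPA4L) and 1.03 (HSPA4). HSPA9 and HSPA5 each fell by 0.88, DNAJB11 by 0.54, and DNAJC10 by 0.54. Of the 9 ER members, 8 fell less than the median gene, and the exception was DNAJB9 (-1.70). HSPB6 (-0.46) and HSPB1 (-0.58) were likewise above the median. HSF1 fell by 0.99.
On FPKM as deposited, where the median of all genes was 0.10, these same genes were higher with CYC065: HSP90B1 by 0.95, HSP90AA1 by 0.78, HSPE1 by 0.71, and the CCT genes by 0.47 to 0.71. By that scale 40 members rose and 19 fell, against 46.9% and 39.8% of all tested genes.

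The members that fell most were HSPBAP1 and 7 J proteins. DNAJC14 changed by -3.47 (SE 0.09), DNAJB1 by -3.23, DNAJA2 by -2.67, DNAJB12 by -2.48, and DNAJB4 by -2.46 (adjusted p = 1.34e-19 or smaller for each, limma). HSPBAP1 (-3.53), DNAJC16 (-3.11), and DNAJB5 (-2.81) were under 1 FPKM in 3 to 5 of the CYC065 groups and passed the filter through the DMSO groups, so their changes are given without a test. DNAJC14 was at 47.0, 48.4, and 50.6 scaled FPKM in SH-EP with DMSO and 4.78, 4.86, and 4.30 with CYC065. In S62A it went from 11.3, 11.9, and 10.1 to 1.04, 0.605, and 0.711. The groups did not overlap in either line, and the CYC065 libraries kept a small part of the DMSO level. All 3 class A J proteins and 7 of 9 class B members fell more than the median gene, and DNAJA3 (-2.31), DNAJC30 (-1.64), and DNAJC11 (-1.33) did so among the 7 mitochondrial members.
Among HSP70 genes, HSPA8 fell by 1.86 (SE 0.08, adjusted p = 2.73e-18), HSPA1A by 1.84, HSPA1B by 1.72, and HSPA14 by 1.53, all past the median gene. DNAJA1, one of the J partners with a heat shock element, fell by 1.33, near the median.

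HSPA2, an HSP70 that is abundant in testis (chromosome 14, 65002623 to 65012891, plus strand), was the one member that rose. In scaled FPKM, its 3 libraries went from 0.408, 0.391, and 0.273 to 8.31, 8.37, and 5.92 in SH-EP. They went from 0.261, 0.0944, and 0 to 1.40, 0.700, and 1.10 in WT and from 0.0837, 0.405, and 0.214 to 0.883, 1.53, and 0.984 in T58A. In S62A they went from 0.0521, 0.0497, and 0.0300 to 0.534, 0.369, and 0.513, and in T58A S62A from 0.641, 0, and 0.141 to 0.580, 1.08, and 0.749. Groups overlapped in T58A S62A alone, and there the call was lost when 1 of its DMSO libraries, the one with HSPA2 at 0, was left out. The change was 4.06 in SH-EP and 2.46 over the 5 lines, a description only, since the gene passed the filter through its CYC065 libraries. The 37 tested co-chaperone, prefoldin, and other genes all fell, against 94.4% of all tested genes. Of these 37, 30 fell less than the median gene, whereas BAG2 (-2.65), an exchange factor of HSP70, fell more.

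The third comparison asks whether the MYCN lines responded to CYC065 otherwise than SH-EP, as the interaction of line and treatment on spike-in scaled FPKM. Over the mean of the 4 MYCN lines, 5 of the 68 members passed (7.35%, against 6.02% of all tested genes). DNAJB9, DNAJB1, DNAJB4, and HSPA8 fell less in the MYCN lines (5.88% of members, against 4.22%), and DNAJC5 fell more (1.47%, against 1.81%). These shares are near the background, and the median interaction of all tested genes was -0.19. DNAJB9 and DNAJB1 passed in each of the 4 lines (2.94%, against 1.39% of all tested genes). By line, 6 members passed for WT (against 16.0% of all tested genes), 4 for T58A (2.66%), 3 for S62A (4.83%), and 3 for the double mutant T58A S62A (5.46%). In WT these included HSPA5 (-0.76) and DNAJB11 (-0.72), which fell more than in SH-EP. The median WT interaction of all tested genes was -0.51, so much of both values is shared by all genes. The WT count ran from 1 to 23 over fits with 1 library left out.
DNAJB9 (ERdj4; chromosome 7, 108210311 to 108215294, plus strand), an ER J protein that holds the stress sensor IRE1 inactive, had the largest interaction of the members that passed. Its scaled FPKM in the 3 libraries went from 33.6, 28.2, and 27.9 to 3.20, 3.30, and 2.70 with CYC065 in SH-EP. They went from 12.2, 8.57, and 10.4 to 3.80, 2.48, and 3.74 in WT and from 13.5, 6.38, and 12.3 to 4.79, 4.60, and 4.32 in T58A. In S62A they went from 8.64, 9.56, and 7.30 to 2.88, 2.67, and 2.99, and in T58A S62A from 20.1, 18.3, and 15.4 to 9.22, 7.76, and 10.9. The change was thus -3.24 in SH-EP and between -1.62 (WT) and -0.94 (T58A S62A) in the MYCN lines, an interaction of 1.93 (SE 0.24, adjusted p = 6.25e-06, limma). As deposited, DNAJB9 went from 10.3, 9.15, and 8.40 to 2.25, 2.29, and 2.31 FPKM in SH-EP but from 9.96, 10.1, and 9.75 to 10.3, 11.2, and 11.2 FPKM in T58A S62A, where the groups lay close together.
DNAJB1 (HSP40; chromosome 19, 14625581 to 14671203, minus strand) was at 154, 145, and 155 scaled FPKM in SH-EP with DMSO and 8.17, 8.55, and 5.97 with CYC065, a change of -4.32. In T58A S62A it went from 91.1, 77.8, and 73.2 to 12.8, 9.96, and 14.1, a change of -2.72, and the other MYCN lines lay between -3.37 and -2.84. Its interaction was 1.37 (SE 0.23, adjusted p = 0.000286). It fell strongly in every line.
HSPA8, the partner of DNAJB1, was at 4398, 4258, and 4539 scaled FPKM in SH-EP with DMSO and 896, 872, and 739 with CYC065. In T58A it went from 2741, 1614, and 2619 to 993, 1003, and 981. The changes were -2.40 and -1.19, and the interaction over the mean of the MYCN lines was 0.67 (adjusted p = 0.0421). DNAJB4, a relative of DNAJB1 whose exons overlap GIPC2 on the same strand, gave 0.78 (adjusted p = 0.0388). Both calls were near the threshold. With 1 library left out, that of HSPA8 was lost in 20 and that of DNAJB4 in 12 of 30 fits, including all 6 fits without a SH-EP library.
DNAJC5 (cysteine string protein), a J protein of secretory vesicles (chromosome 20, 62526479 to 62567384, plus strand), was at 44.2, 45.0, and 43.4 scaled FPKM in SH-EP with DMSO and 14.7, 15.9, and 13.4 with CYC065. In WT it went from 24.5, 15.5, and 16.0 to 3.08, 1.91, and 2.44. The interaction was -0.92 (SE 0.23, adjusted p = 0.0153), which became 0.0528 without 1 SH-EP DMSO library and 0.0613 without 1 SH-EP CYC065 library. HSPA1B (1.23, adjusted p = 0.0584) had a large interaction that did not pass, although it did so in T58A (2.05). Without 1 library its mean interaction was 0.80 to 1.51, both ends without a SH-EP CYC065 library. HSPA2, which rose less in the MYCN lines, did not pass either, and its mean interaction without 1 library was -2.17 to -1.80. These values are a description, since HSPA2 passed the filter through its CYC065 libraries. Of the 16 HSP90, CCT, HSP110, HSP60, and HSP10 genes, 0 passed by limma, and 0 had an unadjusted p under 0.05. For HSP90AA1 the interaction was -0.18 (adjusted p = 0.570).
On FPKM as deposited, 25 members passed (33.3% of all tested genes), 15 of these toward a smaller fall or larger rise in the MYCN lines (13.0%), and DNAJB9 was at 2.01, DNAJB1 at 1.46, HSPA8 at 0.78, DNAJB4 at 0.86, and DNAJC5 at -0.84, each in the direction found with spike-in scaling. The comparisons of CYC065 with DMSO use the same DMSO libraries as those between lines.

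**Figure D5:**
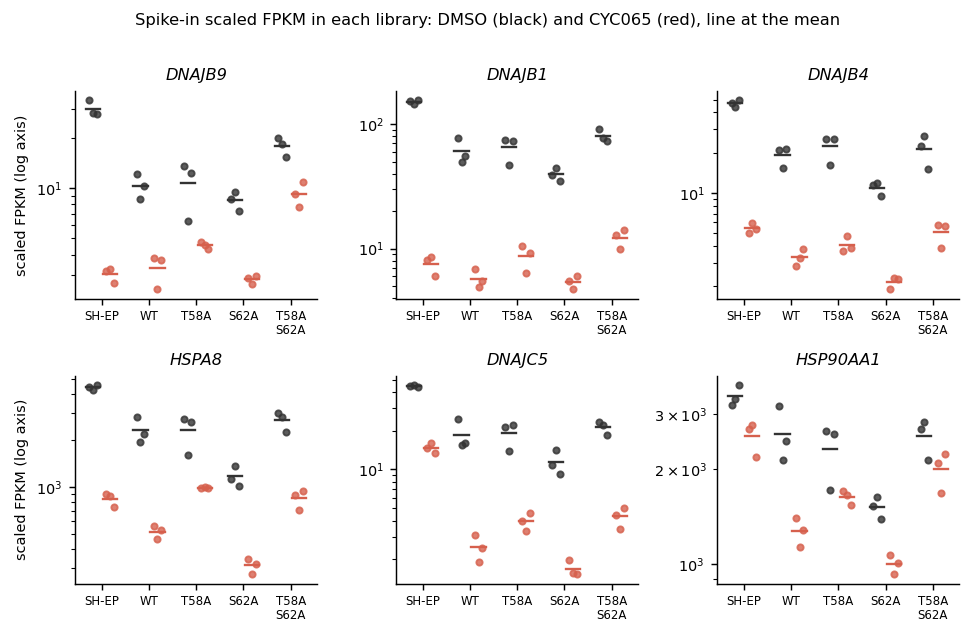
Spike-in scaled FPKM (y axis, log scale) of 6 members in each library of the 5 lines with DMSO (black) or CYC065 (red), with a line at each mean. DNAJB9 falls from about 30 to about 3 in SH-EP and by less in the MYCN lines, DNAJC5 falls least in SH-EP, and HSP90AA1, which did not pass the interaction test, changes by -1.01 (WT) to -0.35 (T58A S62A).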

How the data were processed

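RNA was made into poly(A) libraries with ERCC spike-ins added by cell number. The authors aligned the reads with HISAT2 to hg19 and estimated FPKM with Cufflinks, and 1 table of FPKM for 26228 genes and 92 spike-ins was deposited, with no scaling to the spike-ins. The annotation is not given in the sources used here. Read counts and totals are unknown. Columns were assigned to groups by name, and 0 columns belonged to other samples. Within a group, correlations of log2 values were 0.925 to 0.959, and no 2 libraries were identical.

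Values were taken as log2(FPKM + 0.1), so folds of low genes are understated, for the 11575 genes that averaged 1 FPKM or more over all libraries. One limma 3.58.1 (R 4.3.3) fit over the 10 groups, with a trended empirical Bayes prior and no covariate, gave all contrasts, and p-values were adjusted by the Benjamini-Hochberg method over all tested genes, with a threshold of 0.05. Lines were compared as deposited. CYC065 and its interaction with line were tested after scaling to the 55 spike-ins that averaged 1 FPKM or more, by which less RNA per cell shows as a lower value. The fit was tested on simulated data.

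The members were matched by symbol to the lists, and members and lists were chosen with earlier results of these data known. Genes were named by rule: HSF1, all HSP90, HSP70, HSP110, small HSP, HSP60, HSP10, and CCT genes, the main J partners and those of the ER and mitochondrial lists, and, per contrast, the 8 members with the largest change in each direction or, among the MYCN lines, the 8 smallest p-values. Positions of 83 of 84 members are those of GRCh37. Alternatives were the other scaling, centering on the library median, pseudocounts of 0.01 and 1, no filter and a mean of at least 5 FPKM, a 1.5-fold minimum, fits of the groups compared alone, and each library left out in turn. The value of 1 gene outside the members is not reported here.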

Additional observations from a re-analysis of the deposited data

Results flagged for a closer look

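In all, 5 members had a response to CYC065 that differed between the MYCN lines and SH-EP by the interaction test, on spike-in scaled values, which is 7.35% of the tested members against 6.02% of all tested genes. DNAJB9, an ER J protein, fell less in the MYCN lines by 1.93 in log2 (adjusted p = 6.25e-06, limma), in each of the 4 lines. DNAJB1 fell less by 1.37 (adjusted p = 0.000286), also in each of the 4. DNAJB4 fell less by 0.78 (adjusted p = 0.0388) and passed singly in T58A S62A. HSPA8 fell less by 0.67 (adjusted p = 0.0421) and passed singly in T58A. DNAJC5 fell more, with a difference of -0.92 (adjusted p = 0.0153), and passed singly in WT and S62A. Of 30 fits with 1 library left out, the HSPA8 call was lost in 20, that of DNAJB4 in 12, and that of DNAJC5 in 2. Every one of these 5 kept its sign on FPKM as deposited.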

How the results depend on the processing

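Relative depth limits the low genes most, and the CYC065 libraries are the shallowest. Values as deposited are shares of RNA and spike-in scaled values follow RNA per cell, so a sign can differ between the scales for a gene whose change is smaller than the shift between them. Each fit without 1 library assumes equal spread in the group left with 2. No paired analysis was possible because the columns carry no replicate number that matches the labels. A pseudocount of 0.01 moved no count of members by over 1.5 times, and the cause of the changes given here was not tested.

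Scaled to spike-ins, members higher and lower in the MYCN lines than SH-EP numbered 1 and 65 for the mean, 1 and 63 for WT, 2 and 53 for T58A, 1 and 67 for S62A, 2 and 46 for T58A S62A, and 1 and 45 in all 4 lines, and 66 differed among the MYCN lines. Of all tested genes, 1.09% were higher and 91.4% lower for the mean, and 0.285% and 67.7% in all 4 lines. By line these shares were 0.985% and 88.7% (WT), 1.86% and 78.0% (T58A), 0.380% and 95.1% (S62A), and 2.26% and 70.2% (T58A S62A). Among the MYCN lines, 90.7% of all tested genes differed. As deposited, members higher and lower with CYC065 numbered 40 and 19 for the mean, 38 and 17 in SH-EP, 36 and 14 in WT, 36 and 12 in T58A, 37 and 14 in S62A, 37 and 14 in T58A S62A, and 31 and 10 in all 5 lines. The matching shares of all tested genes were 46.9% and 39.8% for the mean, and 28.5% and 24.4% in all 5 lines. By line, at most 42.7% of all tested genes were higher (SH-EP), and 33.3% (T58A) to 34.6% (S62A) were lower. Members with an interaction as deposited numbered 25 for the mean (33.3% of all tested genes), 15 for WT (28.6%), 23 for T58A (23.9%), 14 for S62A (24.6%), and 14 for T58A S62A (25.4%). With each library centered on its median, members higher and lower with CYC065 numbered 46 and 14 for the mean, 41 and 15 in SH-EP, 42 and 13 in WT, 46 and 11 in T58A, 40 and 11 in S62A, 42 and 11 in T58A S62A, and 36 and 9 in all 5 lines. Of all tested genes, 53.9% were higher and 33.8% lower for the mean, and 35.4% and 19.8% in all 5 lines. By line these shares were 48.0% and 29.7% (SH-EP), 45.2% and 28.3% (WT), 46.6% and 27.3% (T58A), 45.9% and 29.0% (S62A), and 45.5% and 28.8% (T58A S62A). Interactions with centering numbered 24 for the mean (30.3% of all tested genes), 13 for WT (25.7%), 24 for T58A (21.6%), 15 for S62A (22.9%), and 16 for T58A S62A (24.2%). With at least 1.5-fold required, members higher and lower in the MYCN lines numbered 11 and 2 for the mean, 14 and 3 for WT, 12 and 5 for T58A, 15 and 3 for S62A, 14 and 5 for T58A S62A, and 7 and 2 in all 4. Shares of all tested genes were not computed for the 1.5-fold counts or for the settings that follow, so these counts describe the members alone.

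With a mean of at least 5 FPKM required, HSPA2 was not tested and 0 members rose with CYC065 in any line, over the mean, or in all 5 lines. In fits of the groups compared alone, 0 members rose with CYC065 in T58A S62A and hence 0 in all 5 lines, and interactions numbered 2 for WT, 1 for T58A, and 7 for S62A. With a pseudocount of 1, interactions numbered 8 for the mean, 5 for S62A, and 5 for T58A S62A, and with no filter 3 for WT.

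With 1 library left out, interactions numbered 2 to 9 for the mean, where the 9 came without 1 T58A DMSO library and the 2 without 1 SH-EP DMSO or 1 SH-EP CYC065 library. They numbered 1 to 23 for WT, where 23 came without 1 WT DMSO library and 11 of 12 fits moved the count by over 1.5 times, and 2 to 7 for T58A S62A, where 5 and 7 came without 1 of its DMSO and 1 of its CYC065 libraries. Members that rose in T58A S62A and in all 5 lines numbered 0 to 1, with 0 without 1 T58A S62A DMSO library. The HSPA8 interaction missed the threshold with a pseudocount of 0.01 (adjusted p = 0.0553, limma), no filter (0.0776), and a mean of at least 5 FPKM (0.0535), and over fits without 1 library it was 0.58 to 0.72. That of HSPA1B passed with a pseudocount of 1 and both other scalings. So did that of HSPA2, which also passed with no filter and in 5 of 30 fits without 1 library. The DNAJB2 line difference missed it with no filter (adjusted p = 0.0517, limma) and in 6 of 15 fits without 1 library, including all 3 without a SH-EP library. DNAJB1 differed between lines only in the fit of DMSO groups compared alone (adjusted p = 0.00809, limma) or after spike-in scaling. DNAJB9 was lower in the MYCN lines without 1 SH-EP or 1 T58A DMSO library (adjusted p = 0.0326 and 0.0374, limma), and HSPA1A was higher without 1 T58A or 1 S62A DMSO library (0.0465 and 0.0484). With centering, the changes of HSPA14, HSPA1B, and DNAJC30 with CYC065 did not pass (adjusted p = 0.534, 0.240, and 0.115, limma).

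Log2 differences of the MYCN lines that changed sign with spike-in scaling were HSP90AA1 -0.65, HSP90AB1 -0.75, HSPA8 -1.13, HSPA9 -0.38, HSPA14 -0.48, HSPA4 -0.84, HSPA4L -0.32, HSPH1 -0.83, HSPB7 -0.15, HSPB8 -0.95, HSPD1 -0.42, HSPE1 -0.051, CCT8 -0.65, CCT7 -0.73, CCT4 -0.95, TCP1 -0.94, HSF1 -0.71, DNAJA1 -0.90, DNAJA2 -0.75, DNAJA3 -0.57, DNAJC2 -0.63, DNAJC11 -0.68, CCT2 -0.77, CCT3 -0.75, CCT5 -0.87, CCT6A -0.73, DNAJC19 -0.80, HSPA1A -0.82, HSPA1B -0.88, FKBP4 -0.079, and TRAP1 -0.34. Log2 changes with CYC065 that changed sign as deposited were HSP90B1 0.95, HSP90AA1 0.78, HSP90AB1 0.77, HSPD1 0.70, HSPE1 0.71, TCP1 0.71, CCT2 0.47, HSF1 0.36, HSPH1 0.41, HSPA5 0.47, DNAJA1 0.017, HSPB1 0.76, HSPB6 0.88, DNAJB11 0.81, DNAJC10 0.81, HSPA9 0.46, CCT6A 0.47, CCT4 0.47, HSPA4 0.32, HSPA4L 0.49, CCT3 0.57, CCT5 0.64, CCT7 0.71, CCT8 0.63, DNAJC11 0.012, and HSP90B2P 1.00. Those that changed sign with centering were HSP90B1 1.12, HSP90AA1 0.94, HSP90AB1 0.94, HSPD1 0.86, HSPE1 0.87, TCP1 0.88, CCT2 0.63, HSF1 0.52, HSPH1 0.57, HSPA5 0.63, DNAJA1 0.18, HSPB1 0.93, HSPB6 1.05, DNAJB11 0.98, DNAJC10 0.97, HSPA9 0.63, CCT6A 0.63, CCT4 0.63, HSPA4 0.48, HSPA4L 0.65, CCT3 0.74, CCT5 0.81, CCT7 0.87, CCT8 0.79, DNAJC11 0.18, and HSP90B2P 1.16. The other single-gene values recomputed kept their sign under the alternatives run.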
